A study of Mus musculus with 4 samples.

Results

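The photoreceptor ribbon synapse is described here by 10 genes, taken as the rows of the postnatal day 8 gene table whose symbol is Ctbp2, Bsn, Pclo, Rims2, Unc13b, Cacna1f, Cacnb2, Cacna2d4, Egflam or Dmd. They fall into the ribbon scaffold and active zone, the photoreceptor calcium channel complex and the link across the synaptic cleft made by dystroglycan and pikachurin. All 10 symbols were found among 23336 genes, and all 10 were among the 15003 genes tested. RNA-seq was done on retinas of C57/Bl6 mice at postnatal day 8, with 2 libraries from wild-type littermates (WT) and 2 from Opn4-DTA/DTA mice. In Opn4-DTA/DTA mice both copies of Opn4, the gene of the melanopsin photopigment, carry the diphtheria toxin A chain, so that the promoter of Opn4 drives the toxin in intrinsically photosensitive ganglion cells. The tissue label speaks of dissociated cells and the design text of whole extracts, and the series title names a role of melanopsin ganglion cells in cone positioning. Whether the 2 libraries of a genotype are 2 animals is not in the labels, and p-values measure the spread between libraries, which may be technical. Loss of melanopsin and loss of the ganglion cells that make it cannot be told apart.

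Rods and cones release glutamate tonically at ribbon synapses, where a plate-like ribbon holds vesicles above the active zone and calcium channels open next to it. Bipolar cells build ribbons as well, from many of the same proteins. In the mouse, photoreceptor ribbons are anchored, and bipolar and horizontal processes grow into the terminals, before the eyes open, and postnatal day 8 lies in this phase. In bulk RNA, fewer cells of a type and less RNA per cell cannot be told apart.

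The deposited values were group means of counts divided by size factors (normalized counts), from which whole counts per library were recovered. As recovered libraries could not be tied to sample labels, a and b stand for the larger and the smaller size factor within a group. Total counts ranged from 22202382 to 60833968 per library. Opn4 had 369 and 161 counts in the WT libraries and 1 and 0 in the Opn4-DTA/DTA libraries, as labelled. Rods were present in all libraries, with 51906 to 55402 normalized counts of the rod factor Nrl. Opn4-DTA/DTA library a stood apart by sex-linked RNA, with 4178 normalized counts of the Y-linked gene Ddx3y and 47.0 of Xist. The other 3 libraries had 0 of Ddx3y and 61811 to 96533 of Xist, so the Opn4-DTA/DTA libraries came from animals of different sex. The WT libraries differed from each other by transcript length, as described below with the members.

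None of the 10 genes passed the test between genotypes, and the differences in group means ran from 16.8% lower in Opn4-DTA/DTA for Cacna1f to 4.13% higher for Bsn. The test was limma on log2(normalized count + 1) over all 15003 genes, with a Benjamini-Hochberg adjusted p under 0.05 as the threshold, and it called 3 genes, or 0.02%. The limma adjusted p of each of the 10 genes was 0.9997. Both Opn4-DTA/DTA libraries lay below both WT libraries for 5 of the 10 genes, against 12.3% of all genes tested. These 5 were Rims2 and Cacnb2, with a gap near the counting error between the nearest libraries, and Cacna1f, Cacna2d4 and Egflam. The opposite order was found for 0 of the 10, against 11.2% of all genes tested. The log2 fold change, Opn4-DTA/DTA over WT, was below 0 for 8 of the 10, against 50% of all genes. Its median was -0.11 over the 10 genes, and the median of all genes tested was -0.0001.

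**Figure D1:**
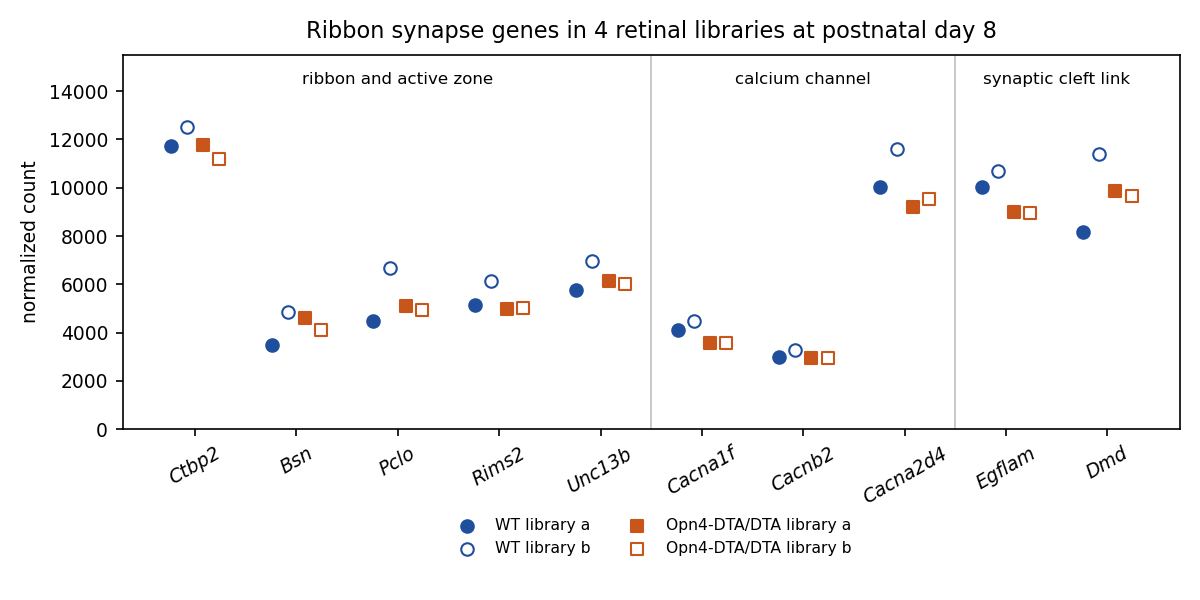
Normalized counts (vertical axis, from 0) of the 10 ribbon synapse genes in each of the 4 libraries. Circles are WT libraries a (filled) and b (open), and squares are Opn4-DTA/DTA libraries a (filled) and b (open). WT library b is the highest of the 4 for all 10 genes, and the squares lie below both circles for Rims2, Cacna1f, Cacnb2, Cacna2d4 and Egflam.

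Ctbp2 encodes RIBEYE, the main structural protein of the ribbon, from a start site inside the gene, and the transcriptional corepressor CtBP2 from starts further upstream. In the deposited table the gene spans chr7:132987011-133015247 on the minus strand (mm10). That interval begins 1 bp from the start of a GENCODE transcript whose protein of 988 residues is of RIBEYE size. Both other coding transcripts, of 420 and 445 residues, begin 107.9 and 108.1 kb further upstream and share its downstream exons. A gene-level count therefore does not separate RIBEYE from CtBP2. Ctbp2 also shares 314 bp of exon with Fgfr2 on the same strand.

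**Figure D2:**
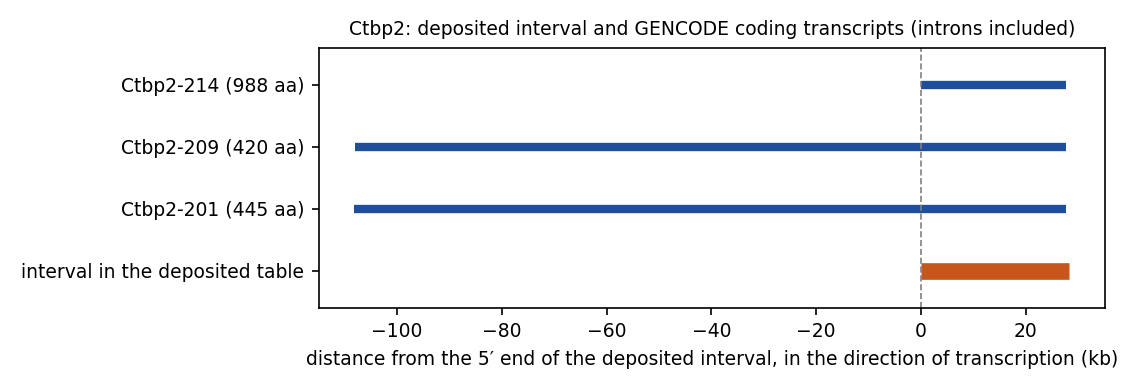
Ctbp2 in the direction of transcription, with distance in kb from the 5′ end of the interval in the deposited table on the horizontal axis. The orange bar is that interval and the blue bars are the 3 coding transcripts of the GENCODE basic set, introns included. The interval starts with the transcript of 988 residues, while the other two start 107.9 and 108.1 kb upstream.

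The 250 bases before the RefSeq start sites (GRCm38.p6) are shown for both RefSeq starts of Ctbp2. They are also shown for Cacna1f and Egflam, the pair of members with the lowest p between genotypes. Sequences run 5′ to 3′ on the strand of the gene. Capitals mark the letters TAATCC or their reverse complement GGATTA, a core motif bound by the photoreceptor factor CRX.
Ctbp2 inner start, chr7:133015248-133015497, minus strand: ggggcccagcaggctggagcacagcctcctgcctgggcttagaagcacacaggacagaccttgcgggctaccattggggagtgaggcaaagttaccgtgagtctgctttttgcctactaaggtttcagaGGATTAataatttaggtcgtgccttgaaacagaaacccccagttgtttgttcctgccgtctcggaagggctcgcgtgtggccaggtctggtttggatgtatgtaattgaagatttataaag
Ctbp2 upstream start, chr7:133081861-133082110, minus strand: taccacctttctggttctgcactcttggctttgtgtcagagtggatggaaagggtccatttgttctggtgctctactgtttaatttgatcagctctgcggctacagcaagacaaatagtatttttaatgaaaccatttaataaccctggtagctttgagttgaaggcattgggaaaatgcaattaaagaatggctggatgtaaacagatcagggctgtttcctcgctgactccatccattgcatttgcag
Cacna1f, chrX:7606853-7607102, plus strand: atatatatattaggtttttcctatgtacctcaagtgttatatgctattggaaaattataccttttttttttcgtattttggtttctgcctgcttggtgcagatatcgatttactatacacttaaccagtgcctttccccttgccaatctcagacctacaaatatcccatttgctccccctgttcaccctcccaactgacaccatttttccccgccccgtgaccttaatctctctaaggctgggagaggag
Egflam, chr15:7398396-7398645, minus strand: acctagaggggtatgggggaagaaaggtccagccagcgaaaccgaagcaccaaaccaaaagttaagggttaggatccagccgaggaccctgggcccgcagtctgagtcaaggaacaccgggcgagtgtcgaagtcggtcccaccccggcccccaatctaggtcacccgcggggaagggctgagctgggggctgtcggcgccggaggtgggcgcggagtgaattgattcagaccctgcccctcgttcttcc
The motif occurred in the window of the inner Ctbp2 start, which is the start of the RIBEYE-size transcript, with 115 bases between motif and start. It was absent from the window of the other RefSeq start of Ctbp2, 66.6 kb upstream. That start is not one of the GENCODE coding starts 107.9 and 108.1 kb upstream, whose windows were not examined. RefSeq windows were matched for 8 of the 10 genes, 12 windows in all, with none matched for Rims2 and Cacna2d4. The motif was found in 1 of the 12, and in 2054 of 32851 windows of all genes (6.25%), searched on both strands. TGCTGA, or TCAGCA on the other strand, a core motif of the rod factor NRL, was found in 0 of the 12 and in 16.1% of all windows. With no TGCTGA present, the motifs had no overlap in these windows, and a match is a description, not a binding site.

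Ctbp2 was the most abundant of the 10 genes per length. WT libraries a and b held 11733 and 12519 normalized counts of Ctbp2, and Opn4-DTA/DTA libraries a and b held 11771 and 11170.4. The groups overlapped, since Opn4-DTA/DTA library a lay above WT library a. The log2 fold change was -0.08 (SE 0.092, 95% confidence interval -0.30 to 0.14). Per kb of exon in the basic coding transcripts, the WT mean of Ctbp2 was 2961 normalized counts, above 96.5% of 13565 tested genes with a length.

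Bassoon and piccolo, the products of Bsn and Pclo, are giant scaffold proteins of the active zone, and bassoon anchors the ribbon to the membrane. They are also found at conventional synapses. Bsn (chr9:108096022-108190383, minus strand) had 3496 and 4841 normalized counts in WT libraries a and b and 4585 and 4096 in Opn4-DTA/DTA libraries a and b. Both Opn4-DTA/DTA values of Bsn lay between the WT values. Pclo (chr5:14514918-14796006, plus strand) had 4478 and 6668 in WT and 5115 and 4925 in Opn4-DTA/DTA, again between the WT values. The log2 fold changes were 0.08 for Bsn (SE 0.155, 95% confidence interval -0.29 to 0.44) and -0.12 for Pclo (SE 0.172, interval -0.53 to 0.28). These were the least precisely measured genes of the set together with Dmd, because the WT libraries differed by a factor of 1.38 for Bsn, 1.49 for Pclo and 1.40 for Dmd. Without WT library a, Pclo was lower in Opn4-DTA/DTA by a log2 fold change of -0.41 (limma adjusted p = 0.0152). Without WT library b, its log2 fold change was 0.16 (limma adjusted p = 0.302), so the direction rested on the choice of WT library.

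Rims2 encodes RIM2, which binds Rab3 and supports calcium entry at the mouse rod terminal, and Unc13b encodes Munc13-2, a vesicle priming factor present in photoreceptor terminals. Rims2 (chr15:39198286-39684372, plus strand) had 5124 and 6134 normalized counts in WT libraries a and b and 4961 and 5019 in Opn4-DTA/DTA libraries a and b. Both Opn4-DTA/DTA values of Rims2 lay below WT, by a gap of 0.03 on the log2 scale between the nearest libraries. Its log2 fold change was -0.17 (SE 0.109, 95% confidence interval -0.42 to 0.09). It was -0.30 without WT library a (limma adjusted p = 0.0517) and -0.04 without WT library b. Unc13b (chr4:43058984-43264887, plus strand) had 5782 and 6960 in WT and 6153 and 5999 in Opn4-DTA/DTA. The Opn4-DTA/DTA values of Unc13b lay between the WT values, and the log2 fold change was -0.06 (SE 0.111, interval -0.32 to 0.20).

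The 3 genes of the calcium channel complex were lower in both Opn4-DTA/DTA libraries than in both WT libraries, though none passed the test. Cacna1f encodes the pore subunit of Cav1.4, the L-type channel that triggers release from photoreceptors, and mutations of the human gene cause congenital stationary night blindness. Cacna1f (chrX:7607103-7635196, plus strand) had 4092 and 4486 normalized counts in WT libraries a and b and 3569.9 and 3563 in Opn4-DTA/DTA libraries a and b. Opn4-DTA/DTA lay below WT by a gap of 0.20 on the log2 scale between the nearest libraries, the widest of the 10 genes. The log2 fold change was -0.26 (SE 0.094, 95% confidence interval -0.48 to -0.05, limma adjusted p = 0.9997). Cacna1f had rank 100 by p among 15003 genes and was the 1 gene of the 10 lower at an unadjusted p under 0.05, against 0.667% of all genes. In a limma fit without a mean-variance trend, its unadjusted p was 0.0611 and its interval, -0.55 to 0.019, included 0. The SD of the Opn4-DTA/DTA libraries, 5.03 normalized counts, was smaller than the counting error of either library, at least 44.2. Without WT library b the log2 fold change of Cacna1f was -0.20 and without WT library a -0.33.

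Cacnb2 encodes the beta2 subunit, which brings the Cav1.4 pore to the membrane, and Cacna2d4 encodes the alpha2delta4 subunit of the same channel. Cacna2d4 (chr6:119236526-119352407, plus strand) had 10043 and 11603 normalized counts in WT libraries a and b and 9194 and 9538 in Opn4-DTA/DTA libraries a and b. The groups lay apart by 0.07 on the log2 scale. The log2 fold change of Cacna2d4 was -0.21 (SE 0.103, 95% confidence interval -0.45 to 0.04), and it was -0.10 without WT library b (limma adjusted p = 0.560). Cacnb2 (chr2:14604306-14987908, plus strand) had 3008 and 3290.4 in WT and 2949 and 2943 in Opn4-DTA/DTA. Opn4-DTA/DTA again lay below WT for Cacnb2, here by a log2 gap of 0.03, with a log2 fold change of -0.09 (SE 0.095, interval -0.32 to 0.13). Per kb of exon, the WT means of the channel genes were 1865 normalized counts for Cacna2d4, 705 for Cacna1f and 653 for Cacnb2. Cacna2d4 was thus the most abundant channel gene in both WT libraries.

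Egflam encodes pikachurin, an extracellular matrix protein of the photoreceptor synaptic cleft that binds dystroglycan and is needed in the mouse for bipolar dendrites to meet the ribbon. Egflam (chr15:7206120-7398304, minus strand) had 10021 and 10674.5 normalized counts in WT libraries a and b and 9016 and 8938 in Opn4-DTA/DTA libraries a and b. Both Opn4-DTA/DTA values lay below WT, by a log2 gap of 0.15. The log2 fold change of Egflam was -0.20 (SE 0.090, 95% confidence interval -0.41 to 0.005), and its p was the second lowest of the set. Dmd encodes dystrophin, which ties dystroglycan to actin inside the terminal. Dmd (chrX:82948870-85205050, plus strand) had 8155 and 11406 in WT and 9853 and 9639 in Opn4-DTA/DTA, so that the Opn4-DTA/DTA values lay between the WT values. Its log2 fold change was 0.01 (SE 0.152, interval -0.34 to 0.37). Short coding transcripts of Dmd, of 617 and 604 residues, begin 2100 kb downstream of the long form of 3678 residues and share its last exons, so the count pools dystrophin forms.

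**Figure D3:**
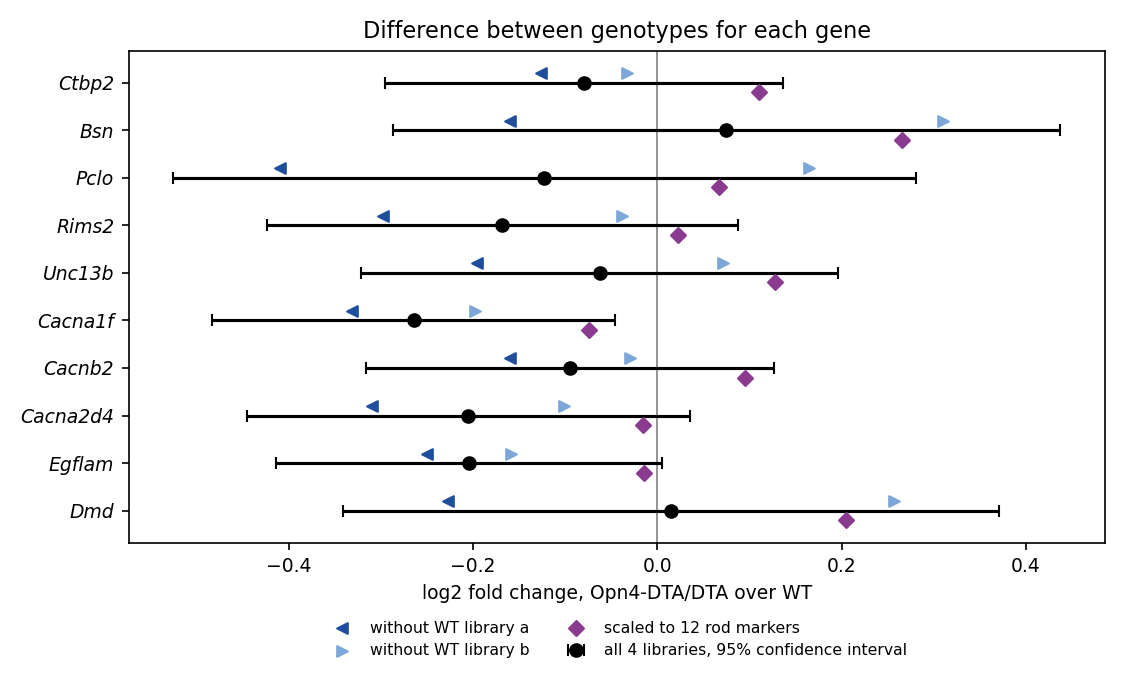
Log2 fold change of each of the 10 genes, Opn4-DTA/DTA over WT (horizontal axis). Black points and bars are the fit to all 4 libraries with its 95% confidence interval, triangles the fits without WT library a or b, and diamonds the fit scaled to 12 rod markers. Only the interval of Cacna1f lies wholly below 0, and the triangles of Bsn, Pclo, Unc13b and Dmd lie on opposite sides of 0.

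Levels per kb of exon ordered the 10 genes in 3 tiers in WT. Ctbp2 (2961), Egflam (2134) and Cacna2d4 (1865) were highest, each above at least 92.3% of tested genes. Rims2 (718), Cacna1f (705), Dmd (654) and Cacnb2 (653) followed. Their per-library WT ranges overlapped, from 545 in WT library a to 763 in WT library b for Dmd, so the order among these 4 was within the spread. Unc13b (363), Bsn (262) and Pclo (253) were lowest, and the ranges of Bsn and Pclo overlapped. Egflam (2067 and 2201) and Cacna2d4 (1731 and 2000) did not overlap in WT. By the length of the longest coding transcript alone, Rims2 stood at 1173 normalized counts per kb and the order of the tiers was the same. Both lengths take in the longest form, so neither could show how the place of Unc13b or Dmd depends on the form used. Unc13b was placed by a form of 4390 residues, while its other coding transcripts of the GENCODE basic set have 1590 to 1982. Pclo, Cacnb2 and Egflam share 111 to 618 bp of exon with annotated genes on the opposite strand, whose reads are not told apart if the counting ignored strand.

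WT library b exceeded WT library a for 10 of the 10 genes, against 49.7% of all genes tested. The ratio ran from 1.07 for Egflam and Ctbp2 to 1.49 for Pclo, and it was largest for the 3 genes with the longest transcripts, Pclo (20084 bp), Bsn (15938 bp) and Dmd (14910 bp). Unc13b (14754 bp), nearly as long as Dmd, had a ratio of 1.20, the same as the shorter Rims2 (4800 bp). Over the 13565 tested genes with a length, the share higher in WT library b was larger in longer classes. WT library b was the higher for 31.0% of 3252 genes whose longest coding transcript is under 2 kb and for 46.5% from 2 to 4 kb. It was the higher for 63.0% from 4 to 8 kb and for 81.4% of 792 genes of 8 kb and over. The 4 members in that last class are Pclo, Bsn, Dmd and Unc13b, with Dmd and Unc13b placed there by their longest form although shorter coding forms exist. The median log2 ratio of the class between the WT libraries was 0.25. Between the Opn4-DTA/DTA libraries the median of that class was 0.08, and the member ratios of library a over b lay between 0.964 and 1.12. All 4 long members had Opn4-DTA/DTA values between the WT values, and both Opn4-DTA/DTA libraries lay below both WT libraries in 5.81% of genes of that class. WT library a also held more RNA of pigment epithelium markers (summed level 10678 against 4648 normalized counts) and of ganglion cell markers (73170 against 46287). The parts of transcript length and of these markers in the member values were not tested.

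Leaving out WT library a raised the count of members called to 3, all lower in Opn4-DTA/DTA, against 0.807% of all genes tested. They were Pclo, Cacna1f (log2 fold change -0.33, limma adjusted p = 0.0394) and Cacna2d4 (-0.31, limma adjusted p = 0.0482). In that fit 306 genes were called in all, with the lone WT library assumed to vary like the other group. Leaving out WT library b gave 237 called genes and 0 of the 10, and leaving out either Opn4-DTA/DTA library gave 10 and 19 called genes and 0 of the 10. In the authors' deposited table, 3 of the 10 had an unadjusted p under 0.05, all lower in Opn4-DTA/DTA, against 187 of 18647 genes (1%) lower at that p in the authors' deposited table. The authors' deposited table gave shrunken log2 fold changes of -0.20 for Cacna1f (p = 0.00201), -0.16 for Egflam (p = 0.00501) and -0.15 for Cacna2d4 (p = 0.0261). None passed there after adjustment, with an adjusted p of 0.615 for Cacna1f in the authors' deposited table and 0.9997 for the other 9.

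Rods, cones and bipolar cells build ribbons. Markers of rods and bipolar cells had log2 fold changes below 0 as well, by an amount that rested on the WT library. All 12 of 12 rod markers had a log2 fold change below 0, with a median of -0.20. None was called by limma, and 2 were lower at an unadjusted limma p under 0.05, against 0.667% of all genes tested. The summed level of the rod markers was 672757 and 574278 normalized counts in WT libraries a and b and 544841 and 560298 in Opn4-DTA/DTA. All 12 of 12 bipolar markers were below 0 too, with none called (1 at an unadjusted p under 0.05), a median of -0.21 and sums of 80844 and 91874 in WT and 73790 and 79529 in Opn4-DTA/DTA. The rod median was -0.05 without WT library a, with 9 of 12 below 0. Leaving out WT library b instead gave a bipolar median of -0.05, with 8 of 12 below 0. Of 12 cone markers, 8 were below 0, with a median of -0.09. Their sums were 54247 and 50148 in WT and 47021 and 46162 in Opn4-DTA/DTA. By limma, 1 cone marker was called higher, against 0.02% of all genes called in either direction. At an unadjusted limma p under 0.05, 3 cone markers were lower, against 0.667% of all genes tested, and 1 was higher. When libraries were scaled to the geometric mean of the rod markers, the member median was 0.08 and 3 of the 10 genes were below 0, namely Cacna1f (-0.07), Cacna2d4 (-0.015) and Egflam (-0.014). These were much closer to 0 than the -0.26, -0.21 and -0.20 under the authors' scaling. The median of all genes was then 0.19, so that the members lay 0.11 below it, the same distance as under the authors' scaling. Progenitor and cell cycle markers lay the other way, with 8 of 10 above 0 and a median of 0.37. Their sums were 8947 and 10237 in WT and 11591 and 10885 in Opn4-DTA/DTA. None was called, and 5 were higher at an unadjusted limma p under 0.05, against 149 of 15003 genes tested. The 3 groups of members had their highest mean in WT library b, like the bipolar markers, whereas the rod markers were highest in WT library a. The part of cell type proportions in the member values was not tested.

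**Figure D4:**
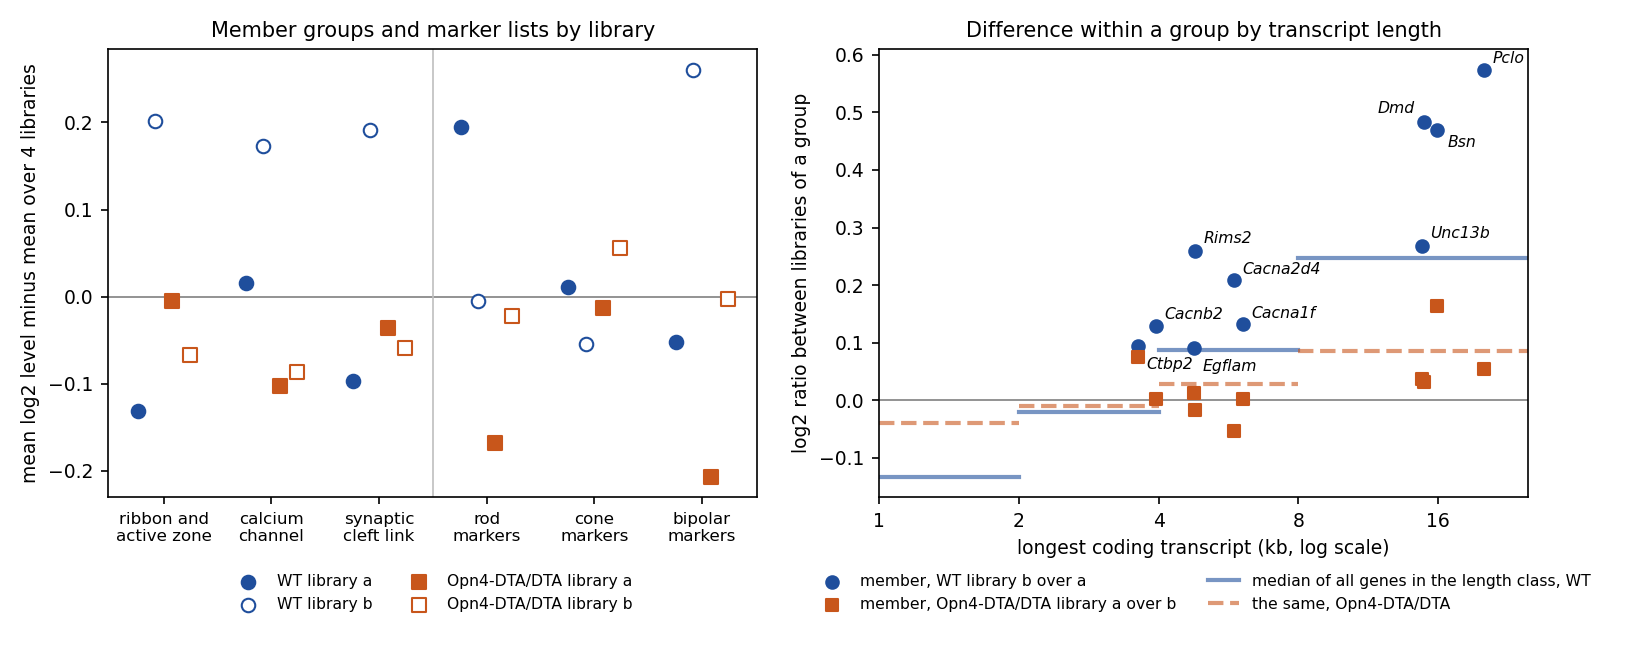
Left, mean log2 level of the 3 member groups and of rod, cone and bipolar markers in each library, minus the mean over the 4 libraries. Right, log2 ratio between the 2 libraries of a group against the longest coding transcript (kb, log scale), with points for members and lines for the median of all tested genes in a length class. Member groups peak in WT library b, rod markers peak in WT library a, and the WT ratios are largest for the long genes Pclo, Dmd and Bsn.

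Other genes of the synapse were read from 6 lists. None of their 82 tested genes was called by limma or by limma voom, and 79 had a log2 fold change between -0.25 and 0.25. Most genes tested lay in that range too, as 4.53% were below -0.24 (the value of Sntb1) and 86.5% below 0.15 (that of Cacna1c). Of the 82, 3 were lower at an unadjusted limma p under 0.05, against 0.667% of all genes tested. Among 13 other active zone genes 7 were below 0, with a median of -0.01 (0.01 without WT library b). For 1 of the 13, both Opn4-DTA/DTA libraries lay below WT, against 12.3% of all genes tested. Unc119, which codes for a lipid-binding trafficking protein of photoreceptor terminals, was the most abundant and the lowest, with 34967 and 28097 normalized counts in WT and 28041 and 29085 in Opn4-DTA/DTA (log2 fold change -0.13). Rims1, the paralogue of Rims2, was the highest at 0.12 (95% confidence interval -0.12 to 0.36). Rims2 lay on the other side of 0 at -0.17 (interval -0.42 to 0.09), but both intervals include 0.

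Among 13 other calcium channel subunits and regulators, 4 were below 0 and the median was 0.02 (0.07 without WT library a). The 3 channel members beside them lay at -0.26, -0.21 and -0.09. Without WT library b the list median was 0.0015, with 6 of 13 below 0, and the median of the channel members was -0.10. In both Opn4-DTA/DTA libraries, 1 of the 13 lay below both WT libraries and 1 above, against 12.3% and 11.2% of all genes tested. The lowest of the 13 was Cabp4, the calcium-binding protein that tunes Cav1.4 at photoreceptor terminals. Cabp4 had 1659 and 1411 normalized counts in WT libraries a and b and 1133 and 1289 in Opn4-DTA/DTA, which lay below both WT values. Its log2 fold change was -0.34 (SE 0.125, 95% confidence interval -0.63 to -0.05, limma adjusted p = 0.9997). Cacna1c, the pore subunit of Cav1.2, was the highest at 0.15 and Cacna2d2 the most abundant at -0.01.

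Vesicle and release genes of ribbon synapses were below 0 for 13 of 14, with a median of -0.06. Both Opn4-DTA/DTA libraries lay below WT for 5 of the 14, against 12.3% of all genes tested. Complexin 4, a SNARE regulator of retinal ribbon synapses encoded by Cplx4, was the lowest (-0.23), with 4854 and 5269 normalized counts in WT and 4017 and 4626 in Opn4-DTA/DTA. Snap25 was the most abundant (-0.04) and Sv2a the highest (0.02). The direction of this list rested on 1 library, since without WT library a 5 of 14 genes were below 0 with a median of 0.01, and without WT library b 14 of 14 with a median of -0.18. WT library b exceeded WT library a for 1 of its 14 genes. Of 12 genes of the terminal scaffold and transsynaptic adhesion, 11 were below 0, with a median of -0.16. For 4 of the 12, both Opn4-DTA/DTA libraries lay below WT, against 12.3% of all genes tested. Without WT library b, 7 of these 12 were below 0, with a median of -0.05. Gpr179, an orphan receptor of ON bipolar dendrites that faces the cleft, was the lowest. It had 3060.0 and 3887 normalized counts in WT and 2449 and 2732 in Opn4-DTA/DTA. The log2 fold change of Gpr179 was -0.41, with an SE of 0.132 and a limma adjusted p of 0.9997. Dlg4, the scaffold PSD-95, which in the retina is dense in photoreceptor terminals, was the most abundant (-0.16) and Atp2b2, a plasma membrane calcium pump, the highest (0.01).

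Of 18 tested genes of the dystrophin complex and dystroglycan glycosylation, 12 were below 0, with a median of -0.05. For 6 of the 18, both Opn4-DTA/DTA libraries lay below WT, against 12.3% of all genes tested. Leaving out WT library a or b gave medians of -0.07 and -0.02. Syntrophin beta 1 (Sntb1) was the lowest at -0.24 and agrin (Agrn), a dystroglycan ligand, the most abundant at 0.01. Among 12 genes of conventional synapses, used by amacrine cells, 9 were above 0, with a median of 0.04. None of the 12 lay below WT in both Opn4-DTA/DTA libraries, against 12.3% of all genes tested. For 2 of the 12, both Opn4-DTA/DTA libraries lay above both WT libraries, against 11.2% of all genes tested. Here too the direction turned with 1 library, the median being 0.15 without WT library a and -0.06, with 8 of 12 below 0, without WT library b. Gad2, an enzyme of GABA synthesis, was the highest at 0.15, Syt2 the lowest at -0.07 and Cplx2 the most abundant at 0.01. Differences between the lists were not tested.

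**Figure D5:**
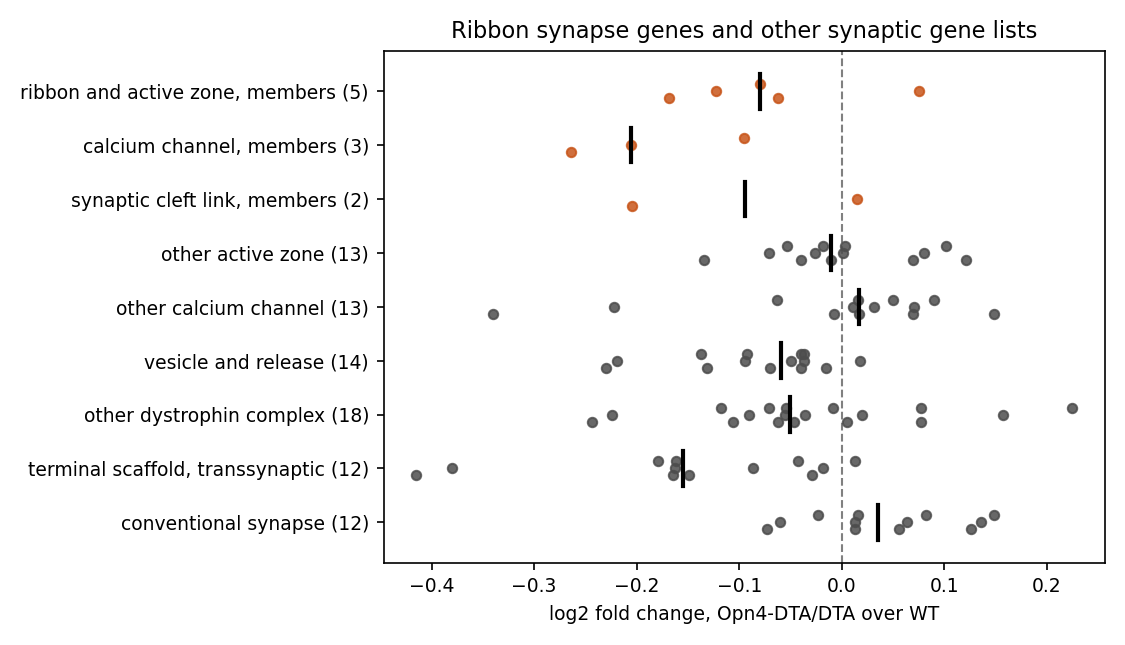
Log2 fold change, Opn4-DTA/DTA over WT, of every tested gene in the 3 member groups (orange) and 6 other synaptic lists (grey), with the number tested in brackets. Vertical bars are list medians and the dashed line is the median of all genes tested. The channel members and the terminal scaffold list have the lowest medians, and the conventional synapse list the highest.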

How the data were processed

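RNA-seq of postnatal day 8 mouse retina was analysed from 1 deposited gene table. Per the labels' protocols, poly(A) RNA was made into directional libraries for Illumina sequencing. The submitters' processing notes name FastQC, STAR, HTSeq, DESeq2 and mm10. The gene annotation and the strand setting of the counting are not given in the sources used here. Per the file headers, the deposited signal is the mean normalized count of each group. Beside it stand the authors' log2 fold changes and their errors, a score (the test statistic) and raw and adjusted p-values from the authors.

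Each group mean was decomposed into the counts of its 2 libraries (relative tolerance 3e-13), with 1 solution for 17757 of 17757 means above 0 in WT and 18327 of 18327 in Opn4-DTA/DTA. Simulated means were recovered as well, 3940 of 3940 and 3930 of 3930. Size factors were 0.862, 0.653, 1.83 and 0.977 for WT libraries a and b and Opn4-DTA/DTA libraries a and b. Total counts were 28726275, 22202382, 60833968 and 32032295 in the same order. The chi-square of counts per degree of freedom was 25.7 for the WT pair and 18.5 for the other, far above sampling noise. The value of the Opn4-DTA/DTA pair takes in its sex difference, with 86 and 94344 counts of Xist in libraries a and b. It was not computed without sex-linked genes, so the spread of the pairs cannot be compared by these values. The counting error of a member was between 0.681% and 2.16% per library, so depth did not limit these genes.

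Genes averaging 10 or more normalized counts were fitted with limma 3.58.1 in R 4.3.3 on log2(normalized count + 1), using a mean-variance trend, two-sided and without covariates. The fit was also run on simulated counts with a fixed dispersion. These held no difference between the WT libraries by transcript length and no sex difference, so they do not test the fit under the spread seen here. A fold change on this scale understates the change of low genes, and all 10 genes here are high. The design had been written for normalized values, and limma was kept although whole counts could be recovered. Alternatives were other filters, pseudocounts (0.5 and 8) and scalings, no trend, limma voom on the recovered counts, the authors' own test, and leaving out each library. Classes of transcript length, levels by the longest transcript and the authors' count of called genes were added after the data were seen. Lengths and overlaps come from GENCODE M21 (GRCm38) and promoter windows from RefSeq (GRCm38.p6).

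The 10 members and the lists were chosen with earlier results of these data known, so no p was adjusted over a list and no list was tested. All members are named. Of each other synaptic list the text names the gene with the highest mean and those with the highest and lowest log2 fold change. Some genes that this rule would name are not reported here. Of 219 listed genes 216 were in the table, 3 under an older symbol.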

Additional observations from a re-analysis of the deposited data

How the results depend on the processing

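Leaving out 1 library in turn gave 10 to 306 called genes, against 3 in the full fit, and 0 to 3 called members. Counts of called genes were also 25 with scaling to rod markers, 0 without the variance trend (limma, 483 genes at an unadjusted p under 0.05, and 3 called with voom) and 17 in the authors' deposited table. The member median of -0.11 was 0.081 with scaling to rod markers and between -0.24 and -0.03 when a library was left out. With scaling to rod markers, log2 fold changes above 0 in place of below were found for Pclo (0.067), Unc13b (0.13), Cacnb2 (0.095), Ctbp2 (0.11) and Rims2 (0.022), as that scaling moved all genes up together. With 1 library left out the log2 fold change ranged from -0.16 to 0.31 for Bsn, from -0.23 to 0.26 for Dmd, from -0.41 to 0.16 for Pclo and from -0.20 to 0.071 for Unc13b. It ranged from -0.30 to -0.038 for Rims2, from -0.31 to -0.10 for Cacna2d4, from -0.16 to -0.030 for Cacnb2, from -0.13 to -0.033 for Ctbp2, from -0.33 to -0.20 for Cacna1f and from -0.25 to -0.16 for Egflam. Each value was lowest without WT library a and highest without WT library b. Bsn (-0.0063) and Dmd (-0.00092) were just below 0 without Opn4-DTA/DTA library a. For these the cause was not tested. Cacna1f, Cacna2d4 and Egflam were below 0 under each of the 12 alternatives, but close to it with scaling to rod markers (-0.074, -0.015 and -0.014). Filters, pseudocounts, library totals and voom changed no direction and no call of a member. No paired analysis was possible because the labels give no replicate number that recurs in both groups and the recovered libraries carry none.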
